A study of Mus musculus with 40 samples.

Results

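Club cells and other secretory cells line the conducting airways, and 8 of the genes that mark them are described here: Scgb1a1, Scgb3a1, Scgb3a2, Muc5b, Cbr2, Cldn10, Gabrp and Reg3g. They were taken by symbol from the 37310 genes of the mouse expression table, and all 8 were among the 15630 genes that entered the tests. The RNA came from female SWR/J mice (labelled SWJ) and A/J mice (labelled AJ) that entered the experiment at about 8 weeks of age and received the carcinogen N-nitrosotris-(2-chloroethyl)urea (NTCU) or its acetone vehicle on the skin. Each library was made either from laser capture microdissected (LCM) cells or from a fresh frozen section of whole lung, and 25 of the 40 libraries carried the passed quality label and were compared.

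The 7 normal libraries came from vehicle-treated mice, which received 0 µmol NTCU (LCM n = 3, whole lung n = 4, SWR/J n = 4, A/J n = 3). The 5 libraries with mild dysplasia came from SWR/J mice that received 15 µmol (LCM n = 3, whole lung n = 2). The 13 high-grade libraries comprised moderate to severe dysplasia (n = 9), severe dysplasia (n = 2) and carcinoma in situ or squamous cell carcinoma (n = 2); the SWR/J mice (n = 8) had received 25, 30 or 50 µmol and the A/J mice (n = 5) 14 or 20 µmol. Within each strain dose therefore moved with grade, and the effects of dose and of grade cannot be told apart. Across strains the doses differed, with 14 or 20 µmol in high-grade A/J mice and 15 µmol in mild SWR/J mice. No mild library came from A/J mice. The severe dysplasia libraries all came from SWR/J mice, and those of carcinoma in situ or squamous cell carcinoma all from A/J mice. The labels do not tie libraries to animals, so p-values measure the spread between libraries, some of which may share a mouse. A vehicle LCM library of an A/J mouse (normal replicate 10) and an LCM library graded mild (mild dysplasia replicate 5) were described elsewhere in the labels with the histology of the other group.

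Club cells are dome-shaped secretory cells of the airway. They release secretoglobins, detoxify inhaled and circulating compounds, and can divide to renew both themselves and ciliated cells after injury. Goblet and other mucous cells of the same epithelium release gel-forming mucins, which trap particles for clearance by cilia, and secretory cells also release proteins that act on bacteria. In the NTCU model, airway epithelium is replaced by squamous epithelium as dysplasia advances to squamous carcinoma.

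Expected counts summed to between 2667387 and 16534728 per library, with a median of 9075416. The median transcript integrity number (TIN), a measure of RNA quality, was 58.7 over normal, 57.8 over mild and 45.5 over high-grade libraries, and TIN was a covariate in the model. Genes of other tissues were measured in many libraries, and 4 libraries were left out in an alternative for the strongest of them. Pth, the parathyroid hormone gene, reached log2 CPM (counts scaled to a common library size, with TMM factors) of 15.11 in the LCM library moderate to severe dysplasia replicate 7 and 13.07 in the whole lung library replicate 13 of that grade. The surfactant gene Sftpc of alveolar type 2 cells was at a log2 CPM of 4.89 in whole lung normal replicate 6, where the lymphocyte recombination gene Rag1 was at 10.02, and the gene with the most counts in whole lung normal replicate 7 was Krt4, a keratin of stratified epithelium. The libraries that were kept also held such genes, with Rag1 at 9.46 in normal replicate 3, 9.03 in moderate to severe dysplasia replicate 4, 8.78 in normal replicate 9 and 8.36 in moderate to severe dysplasia replicate 10. In severe dysplasia replicate 4 the thyroglobulin gene Tg was at 9.0, the skeletal muscle gene Acta1 at 11.71 and Krt4 at 13.87. Values without the 4 libraries are therefore not free of other tissues. Main member counts are given below with and without these 4 libraries, and the part of these tissues in the results was not tested.

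Per kilobase of exon, the 8 genes spanned a wide range of levels, with Scgb1a1 at the top. On the scale of mean log2 CPM per kilobase over the 25 libraries, Scgb1a1 was at 14.29 ± 2.12 (SD), followed by Cbr2 at 11 ± 1.64 and Scgb3a2 at 10.35 ± 2.0. Reg3g at 7.646 ± 3.15 and Scgb3a1 at 7.562 ± 2.74 came next, and then Gabrp at 5.331 ± 2.04, Cldn10 at 2.726 ± 1.52 and Muc5b at 1.375 ± 1.91. Of the neighbours in this order, Scgb1a1 and Cbr2, and Gabrp and Cldn10, were farther apart than either gene's SD, and the other 5 neighbouring pairs were not. Scgb1a1 alone took between 0.0329% and 19.4% of a library's counts, with a median of 1.16%, and it was the gene with the most counts in 4 of the 25 libraries. All 8 genes together took between 0.0832% and 21.5%, with a median of 2.51%. In bulk RNA of this kind, fewer cells of a type and less RNA per cell cannot be told apart.

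**Figure D1:**
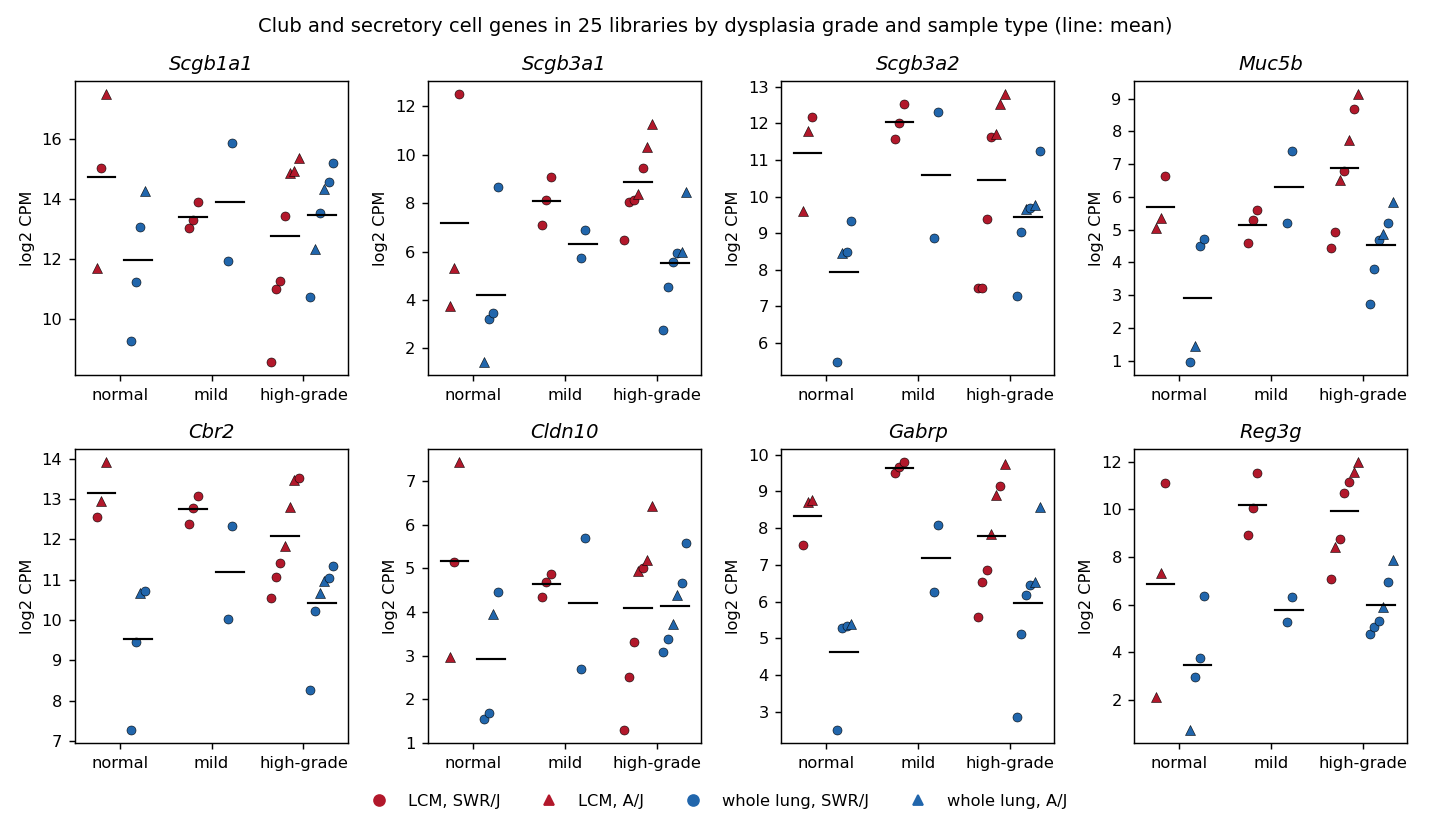
Log2 CPM of each of the 8 genes (vertical axes) in the 25 libraries by dysplasia grade, with 1 point per library, LCM in red, whole lung in blue, circles for SWR/J, triangles for A/J, and a line at each mean. Gabrp is the one gene whose mild libraries all lie above the normal libraries of the same sample type, in LCM and in whole lung alike, while the normal libraries of Scgb1a1, Scgb3a1 and Reg3g cover wide ranges.

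Scgb1a1 encodes secretoglobin 1A1, the most abundant secreted protein of club cells, and lies on the minus strand at chr19:9158126-9162448 (mm9, as are all gene positions here). Its log2 CPM in normal LCM libraries was 17.48, 15.03 and 11.7, and in normal whole lung it was 14.27, 13.08, 11.25 and 9.27. In mild dysplasia it was 13.91, 13.31 and 13.03 in LCM and 15.88 and 11.94 in whole lung. High-grade libraries ranged from 8.58 through a median of 13.44 to 15.38 in LCM, and from 10.75 through 13.94 to 15.21 in whole lung. The groups overlapped throughout, and the highest and lowest passed levels, in a normal A/J library and in an SWR/J library with severe dysplasia, were both LCM. Scgb1a1 differed by 0.19 ± 1.25 (log2 fold change ± SE) between mild and normal and by -0.60 ± 1.01 between high-grade and normal (adjusted p = 0.933 and 0.854, edgeR's quasi-likelihood test with Benjamini-Hochberg adjustment over the 15630 genes, as for every adjusted p below unless another tool is named).

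Scgb3a2, a second small secretoglobin of club cells that is induced early in airway development, had overlapping groups at every grade. Its log2 CPM was 12.16, 11.78 and 9.6 in normal LCM, and 12.54, 12.01 and 11.58 in mild LCM. In whole lung it was 9.34, 8.49, 8.47 and 5.48 in normal and 12.3 and 8.86 in mild libraries. The high-grade libraries ranged from 7.5 through 11.64 to 12.79 in LCM and from 7.27 through 9.68 to 11.24 in whole lung, overlapping the normal range in both sample types. The fitted differences were 1.88 ± 0.92 for mild against normal (p = 0.053, adjusted p = 0.159; 1.04 without mild dysplasia replicate 4 and 2.93 without normal replicate 3) and 0.57 ± 0.82 for high-grade against normal (adjusted p = 0.826).

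Scgb3a1, the third secretoglobin, is known from secretory cells of the larger airways, and its gene lies at chr11:49477112-49478620 on the plus strand. Its SD was widest over the normal libraries, at 3.83 log2 units against 1.28 over mild and 2.39 over high-grade libraries. The normal log2 CPM values were 12.49, 5.32 and 3.75 in LCM and 8.68, 3.45, 3.2 and 1.44 in whole lung. The mild values of 9.07, 8.11 and 7.08 in LCM and 6.88 and 5.72 in whole lung lay between these extremes. High-grade libraries ranged from 6.47 through 8.36 to 11.27 in LCM and from 2.78 through 5.75 to 8.45 in whole lung. The mean over the 5 mild libraries was 7.37 and that over the 7 normal libraries 5.47, but the model, which adjusts for sample type, strain and TIN, gave a difference of the other sign, -1.66 ± 1.28 (adjusted p = 0.373). For high-grade against normal the means were 7.33 and 5.47 and the fitted difference was -0.35 ± 1.59 (adjusted p = 0.954).

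Muc5b, at chr7:149024975-149058990 on the plus strand, encodes the gel-forming mucin that airway clearance in mice depends on. Its normal log2 CPM values were 6.65, 5.36 and 5.04 in LCM and 4.71, 4.49, 1.44 and 0.96 in whole lung. Mild libraries were at 5.59, 5.29 and 4.58 in LCM and at 7.39 and 5.19 in whole lung, so that mild lay above every normal library in whole lung but not in LCM. The high-grade range was 4.43 to 9.13 in LCM and 2.73 to 5.85 in whole lung. Muc5b differed by 2.10 ± 1.13 between mild and normal (adjusted p = 0.197), with a range from 0.60 without mild dysplasia replicate 4 to 2.86 without normal replicate 3, and by 1.25 ± 0.94 between high-grade and normal (adjusted p = 0.683).

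Cbr2, a carbonyl reductase abundant in club cells (chr11:120590803-120593428, minus strand), lay higher in every LCM library than in any whole lung library of the normal group, and likewise within the mild group. Its log2 CPM in normal libraries was 13.91, 12.95 and 12.55 in LCM and 10.71, 10.66, 9.44 and 7.27 in whole lung. In mild libraries it was 13.07, 12.78 and 12.37 in LCM and 12.34 and 10.03 in whole lung, so that the mild separation rests on 12.37 against 12.34. The share of all genes that separate in this way was not counted. High-grade LCM libraries ranged from 10.55 through 11.83 to 13.52 and high-grade whole lung from 8.25 through 10.81 to 11.34. Its fitted difference was 0.98 ± 0.72 for mild and 0.02 ± 0.52 for high-grade against normal (adjusted p = 0.354 and 0.994).

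Cldn10, which encodes a claudin of tight junctions that marks club cells from early in development, lies at chr14:119187093-119274711 on the plus strand. It ranged from 2.97 to 7.44 in normal LCM, from 1.53 to 4.47 in normal whole lung, from 2.7 to 5.71 over the mild and from 1.29 to 6.43 over the high-grade libraries (log2 CPM). These ranges overlapped, with differences of 0.65 ± 0.95 for mild and -0.30 ± 0.71 for high-grade against normal (adjusted p = 0.661 and 0.896).

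Gabrp encodes the pi subunit of the GABA type A receptor, a chloride channel subunit found in epithelia, and lies at chr11:33450781-33478959 on the minus strand. It was the one member that passed the test of mild dysplasia against normal. In LCM its log2 CPM was 9.79, 9.65 and 9.5 in mild and 8.77, 8.71 and 7.53 in normal libraries. In whole lung it was 8.08 and 6.27 in mild and 5.4, 5.35, 5.27 and 2.51 in normal libraries. The mild libraries thus lay above every normal library within each sample type, by a small gap in LCM. High-grade libraries overlapped both groups, ranging from 5.57 through 7.85 to 9.74 in LCM and from 2.87 through 6.32 to 8.57 in whole lung.

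Reg3g encodes a secreted lectin that kills Gram-positive bacteria and is induced in airway epithelium by infection and inflammation; its gene is at chr6:78416262-78418868 on the minus strand. Its normal libraries covered almost the whole measured range, with log2 CPM of 11.1, 7.34 and 2.14 in LCM and 6.38, 3.77, 2.95 and 0.74 in whole lung. The mild libraries were at 11.54, 10.07 and 8.92 in LCM and at 6.3 and 5.25 in whole lung. High-grade libraries ranged from 7.08 through 10.7 to 11.97 in LCM and from 4.76 through 5.59 to 7.87 in whole lung. Every mild LCM library lay above every whole lung library of any grade, whereas 1 of the 3 normal LCM libraries had the second lowest Reg3g level of all 25. The share of all genes with such a separation was not counted. The difference from normal was 0.96 ± 1.07 for mild and 1.67 ± 1.23 for high-grade (adjusted p = 0.553 and 0.675).

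**Figure D2:**
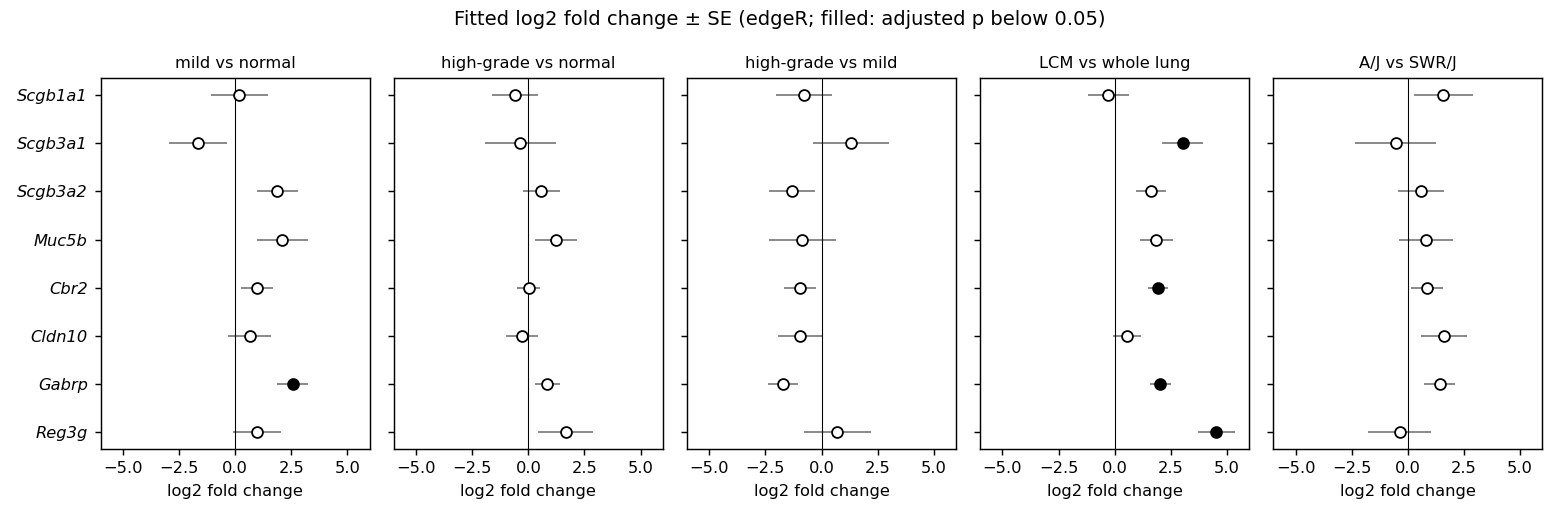
Fitted log2 fold change (horizontal axes) ± SE of the 8 genes in 5 comparisons from one edgeR model, with filled points where the adjusted p is below 0.05. Gabrp is filled for mild against normal, and Scgb3a1, Cbr2, Gabrp and Reg3g for LCM against whole lung.

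Mild dysplasia was compared with normal to ask whether secretory genes had changed at the first grade. Gabrp rose by 2.56 ± 0.70 on the log2 scale (5.9-fold, adjusted p = 0.0275), and the other 7 members did not pass the test. The 1 of 8 members called stands beside 12.4% of all 15630 genes called in either direction and 5.21% called higher, a share near the background. The median log2 fold change of the 8 members was 0.97 and that of all genes -0.02. The mild libraries of Gabrp lay above every normal library in both sample types, which held for 1.65% of genes; in LCM alone it held for 7.74% of genes and in whole lung alone, where Muc5b also showed it, for 13.6%. Without the 4 libraries with markers of other tissues, Gabrp differed by 2.84 (adjusted p = 0.0467) and remained the one member called, beside 419 of all 15630 genes called higher. The call was lost with TIN as the only covariate (adjusted p = 0.128), without the 2 libraries described otherwise (0.0515), in SWR/J alone (0.083), LCM alone (0.388) and whole lung alone (0.241), and without any one of normal replicate 3 and mild dysplasia replicates 1, 2 and 4 (0.0509 to 0.0598); the log2 fold change stayed between 2.38 and 3.17 in all of these.

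High-grade dysplasia and carcinoma were compared with normal to ask what remains of secretory expression at the advanced grades. None of the 8 members passed the edgeR test, and none had an unadjusted p under 0.05 or passed DESeq2. Of all genes, 0.0192% were called. The largest fitted differences were those of Reg3g and Muc5b given above, and the log2 fold changes of the other 6 members lay between -0.60 and 0.85. Against mild dysplasia the members were again not called, with 0.326% of all genes called by edgeR and none of the 8 members by DESeq2. Gabrp was the one member with an unadjusted p under 0.05 in this comparison, at -1.71 ± 0.67 (p = 0.0177, adjusted p = 0.140), and 6 of the 8 members had a negative difference. Without TIN in the model Gabrp was called (-1.84, adjusted p = 0.0372), beside 2339 of all genes. With TIN, DESeq2 called 1377 of all genes where edgeR called 51.

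The source of the RNA was the comparison in which most members passed. LCM libraries were compared with whole lung libraries within the same model, and 4 of the 8 members were higher in LCM, beside 5.65% of all genes called higher and 14.6% called in either direction. Reg3g had a mean log2 CPM of 9.29 ± 2.7 in LCM (SD, n = 13) and 5.1 ± 1.91 in whole lung (n = 12), and was higher in LCM by 4.53 ± 0.83 (23.2-fold, adjusted p = 0.00236). Gabrp was at 8.35 ± 1.37 and 5.72 ± 1.77 and was higher by 2.04 ± 0.47 (4.12-fold, adjusted p = 0.00792). Cbr2, at 12.48 ± 1.01 and 10.24 ± 1.38, was higher by 1.93 ± 0.46 (3.82-fold, adjusted p = 0.00925). The calls of these 3 genes held with each single library left out in turn.

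Scgb3a1 was also higher in LCM, at 8.3 ± 2.36 against 5.22 ± 2.23, with a difference of 3.03 ± 0.92 (8.17-fold, adjusted p = 0.0308). That call rested on single libraries: without normal replicate 3, which has the highest Scgb3a1 level of all, the difference was 2.08 (adjusted p = 0.187), and it also missed the threshold without mild dysplasia replicate 3 (0.0638) or moderate to severe dysplasia replicate 10 (0.0511), and without a gene filter (0.0568). Muc5b and Scgb3a2 differed by 1.86 ± 0.72 and 1.62 ± 0.67 in the same direction (adjusted p = 0.0857 and 0.106), and DESeq2 called both (adjusted p = 0.00895 and 0.0204). Of all 15630 genes, DESeq2 called 3348 in this comparison, 1583 of them higher in LCM. The most abundant member, Scgb1a1, had nearly equal means of 13.38 and 13.04 and a fitted difference of -0.28 ± 0.90 (adjusted p = 0.866), and Cldn10 differed by 0.55 ± 0.63 (adjusted p = 0.593). Without the 4 libraries with markers of other tissues, 5 members were called, the 4 above and Scgb3a2 (2.29, adjusted p = 0.0245), beside 1079 of all 15630 genes called higher. The median difference over the 8 members was 1.90 and that over all genes -0.03.

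Markers of other cells moved with the source too. All 5 endothelial markers, 3 of 6 alveolar type 2 and 3 of 6 alveolar type 1 markers were called lower in LCM, as were 2 of 5 macrophage, 1 of 5 lymphocyte and 1 of 4 fibroblast markers. Of all 15630 genes, 1395 were called lower in LCM and 5.65% higher. Higher in LCM were 4 of 8 markers of ciliated cells, which share the airway epithelium with club cells, and 1 of 6 markers of basal cells. The summed level of the alveolar type 2 markers was 154 to 9750 CPM in LCM and 160 to 30700 CPM in whole lung, and that of the ciliated markers was 43.6 to 750 CPM in LCM and 15.2 to 353 CPM in whole lung. No marker of these lists was at 0 in every library. Their part in the differences of Reg3g, Gabrp, Cbr2 and Scgb3a1 was not tested.

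Between strains the 8 genes did not pass the edgeR test or DESeq2 (A/J against SWR/J, adjusted for grade, source and TIN), beside 0.992% of all genes called by edgeR. In A/J Scgb1a1 had a mean log2 CPM of 14.41 (n = 8) and in SWR/J of 12.65 (n = 17), a fitted difference of 1.59 ± 1.33. It was 0.64 without normal replicate 5, 2.70 without normal replicate 3 and 0.26 without the 4 libraries with markers of other tissues. Gabrp had the smallest p of the members, with 1.43 ± 0.69 (p = 0.0493, adjusted p = 0.284), and it was called when TIN was left out of the model (1.62, adjusted p = 0.0273). Median TIN was 61.1 in A/J and 45.1 in SWR/J libraries. Over all genes, 155 were called between strains with TIN in the model and 2493 without it.

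The change from normal to high-grade was also compared between strains, by an interaction term, and there Scgb3a1 and Reg3g had the largest values of the 8. In A/J mice Scgb3a1 was at a log2 CPM of 1.44, 3.75 and 5.32 in normal and at 5.98, 8.36, 8.45, 10.32 and 11.27 in high-grade libraries. These groups did not overlap; among all genes, every high-grade A/J library lay above every normal one for 2.42%. In SWR/J mice the normal values of 3.2, 3.45, 8.68 and 12.49 overlapped the high-grade libraries, which ranged from 2.78 through 6.2 to 9.47. The interaction was 8.58 ± 1.75 on the log2 scale (p = 7.76e-05), but over all genes it did not pass in edgeR (adjusted p = 0.525). DESeq2 called it (8.62, adjusted p = 2.84e-07). The interactions were not refitted with each single library left out, so their dependence on 1 library was not tested. In A/J libraries fitted alone, high-grade differed from normal by 6.28 ± 1.12 (adjusted p = 0.448), and without the 4 libraries with markers of other tissues, all from SWR/J mice, the interaction was 9.02 ± 1.74 (adjusted p = 0.575).

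Reg3g had the second largest interaction of the members. Its A/J values were 0.74, 2.14 and 7.34 in normal and 5.88, 7.87, 8.42, 11.55 and 11.97 in high-grade libraries, with the vehicle library that is described as mild as the highest normal. In SWR/J mice the normal values were 2.95, 3.77, 6.38 and 11.1, and the high-grade libraries ranged from 4.76 through 7.0 to 11.14. The interaction was 5.52 ± 1.56 (p = 0.00198, adjusted p = 0.970), and DESeq2 gave an adjusted p of 0.0489. By edgeR 0 genes (0.0%) were called for this interaction, with 678 genes at an unadjusted p under 0.05, and DESeq2 called 5 genes, of which Scgb3a1 and Reg3g were 2. For the interaction of high-grade with sample type, edgeR called 0 genes as well, with 1117 at an unadjusted p under 0.05, DESeq2 called 2 genes and none of the members, and the largest values among them were -2.42 ± 1.59 for Scgb1a1 and 2.29 ± 1.25 for Muc5b (adjusted p = 0.771 and 0.734). There were 3 normal A/J libraries, and doses differed between the strains. The high-grade group held severe dysplasia libraries in SWR/J only and carcinoma libraries in A/J only. Strain, dose and type of high-grade lesion therefore cannot be told apart in these values.

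**Figure D3:**
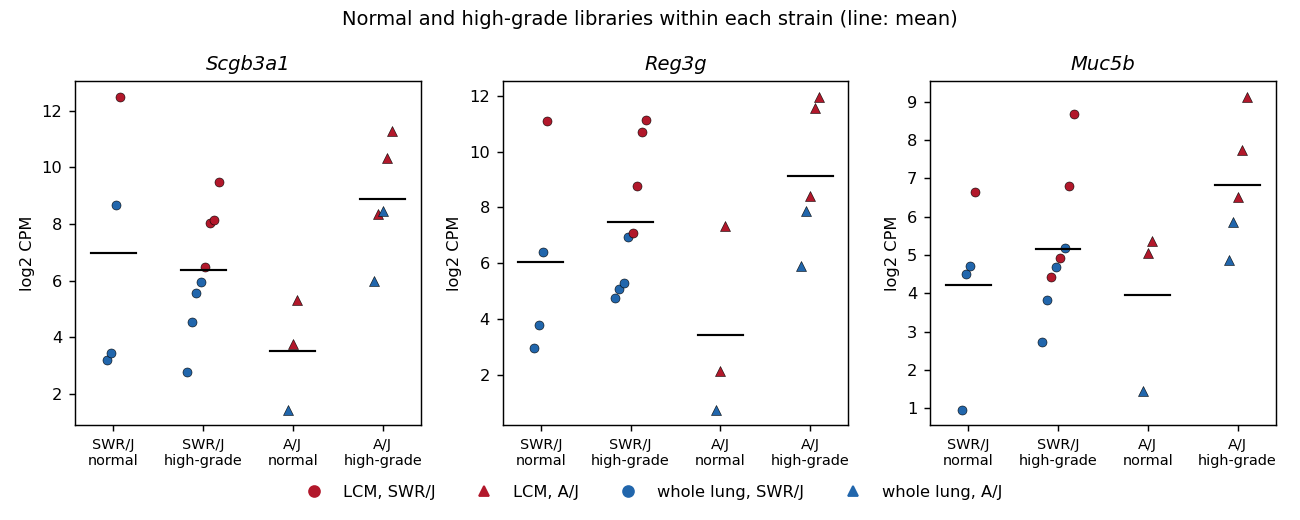
Log2 CPM of Scgb3a1, Reg3g and Muc5b (vertical axes) in normal and high-grade libraries of SWR/J and A/J mice, with 1 point per library, LCM in red, whole lung in blue, and a line at each mean. The 5 high-grade A/J libraries of Scgb3a1 lie above the 3 normal A/J libraries, whereas the SWR/J groups overlap.

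Scgb3a1 and Reg3g also varied together over the 25 libraries (r = 0.875, given as a description), and the 300 bases around their start sites (250 before to 50 after) are shown beside those of Gabrp, the member called in mild dysplasia. RefSeq promoters in build GRCm38.p6, which is a later build than that of the counts, matched 5 of the 8 members with 6 start sites: Reg3g, Gabrp, Scgb3a1, Cbr2 and Cldn10, the last with 2. Capitals mark matches, on either strand, to the C/EBP motif TTGCNNAA, to a pair of FOXA motifs, namely TGTTTAC with its variant spelling TGTTTGC, to a pair of NKX2-1 motifs that can overlap, namely CACTTGA with the shorter form CTCAAG, and to the TATA box motif TATAAA. The windows are chr11:49663345-49663644, plus strand, for Scgb3a1, chr6:78468825-78469124, minus strand, for Reg3g and chr11:33578908-33579207, minus strand, for Gabrp.
Scgb3a1: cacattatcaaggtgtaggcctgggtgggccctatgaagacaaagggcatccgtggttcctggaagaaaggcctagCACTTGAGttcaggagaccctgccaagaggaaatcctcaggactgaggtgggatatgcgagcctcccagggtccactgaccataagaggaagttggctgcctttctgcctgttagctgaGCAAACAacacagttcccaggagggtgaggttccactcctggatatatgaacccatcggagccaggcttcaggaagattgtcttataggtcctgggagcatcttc
Reg3g: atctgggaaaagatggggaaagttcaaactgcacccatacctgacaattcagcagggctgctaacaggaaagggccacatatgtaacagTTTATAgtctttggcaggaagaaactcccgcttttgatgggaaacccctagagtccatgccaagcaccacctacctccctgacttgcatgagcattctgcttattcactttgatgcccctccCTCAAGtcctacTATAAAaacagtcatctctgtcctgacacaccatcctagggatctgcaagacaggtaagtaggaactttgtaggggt
Gabrp: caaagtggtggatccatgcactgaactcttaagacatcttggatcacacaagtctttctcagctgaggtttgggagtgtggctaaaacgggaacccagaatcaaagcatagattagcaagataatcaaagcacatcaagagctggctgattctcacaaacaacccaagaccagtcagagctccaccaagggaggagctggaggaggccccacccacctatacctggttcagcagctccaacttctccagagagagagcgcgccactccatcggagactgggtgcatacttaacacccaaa

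Positions are given for the first base of a match, from the start site. In the Scgb3a1 window the capitals are a CACTTGA motif at -174, which overlaps a CTCAAG motif of the other strand at -172, and a TGTTTGC motif of the other strand at -55. The Reg3g window held a CTCAAG motif at -39 and a TATAAA motif at -27, and another TATA motif of the other strand at -161. The Gabrp and Cbr2 windows held none of the 6 motifs, and of the 2 Cldn10 windows one held CACTTGA and CTCAAG, overlapping. Among all 32851 promoters of the same length, CTCAAG was in 15.9%, TATAAA in 13.6%, TTGCNNAA in 10.8%, TGTTTGC in 5.07%, TGTTTAC in 3.65% and CACTTGA in 3.06%. These matches describe the letters of the windows and were not tested as binding sites.

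Cldn10, Scgb3a2 and, in whole lung, Cbr2 rose and fell with Scgb1a1 from library to library. Each of the other 7 was correlated with Scgb1a1 across libraries, apart in LCM (n = 13) and in whole lung (n = 12), with two-sided permutation tests and adjustment over these 14 relations. Cldn10 had Pearson's r = 0.808 in LCM and 0.912 in whole lung (permutation p = 0.00092 and 3e-05, adjusted 0.00258 and 0.00021) and Spearman's rho = 0.813 and 0.923 (adjusted permutation p = 0.00527 and 0.00112). Scgb3a2 had r = 0.838 and 0.846 (permutation p = 0.00027 and 0.00045, adjusted 0.00126 and 0.00157) and rho = 0.764 and 0.797 (adjusted permutation p = 0.00944 for both). Without the 2 libraries farthest from the median of Scgb1a1, r was 0.695 and 0.841 for Cldn10 and 0.882 and 0.641 for Scgb3a2. Without the libraries with markers of other tissues, r was 0.883 and 0.935 for Cldn10 and 0.846 and 0.883 for Scgb3a2. The permutation tests were not repeated for these reduced sets.

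Cbr2 had r = 0.763 in LCM and 0.922 in whole lung (permutation p = 0.00241 and 2e-05, adjusted 0.00562 and 0.00021), with rho = 0.615 and 0.881 (adjusted permutation p = 0.0642 and 0.00231). In LCM its r fell to 0.496 without the 2 farthest libraries, so that this relation rests on them. Gabrp had r = 0.545 and 0.619 and rho = 0.363 and 0.476 (adjusted permutation p from 0.062 to 0.372). Scgb3a1, Muc5b and Reg3g did not follow Scgb1a1, with r of 0.11, 0.009 and -0.251 in LCM and -0.039, 0.398 and 0.08 in whole lung, rho between 0.084 and 0.352, and adjusted permutation p from 0.312 to 0.977. Without the 2 farthest LCM libraries, normal replicate 5 with the highest and severe dysplasia replicate 2 with the lowest Scgb1a1, r in LCM was 0.758, 0.758 and 0.697 for these 3 genes, so that the low values rest on those libraries; in whole lung the same step gave -0.456, -0.317 and -0.199.

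**Figure D4:**
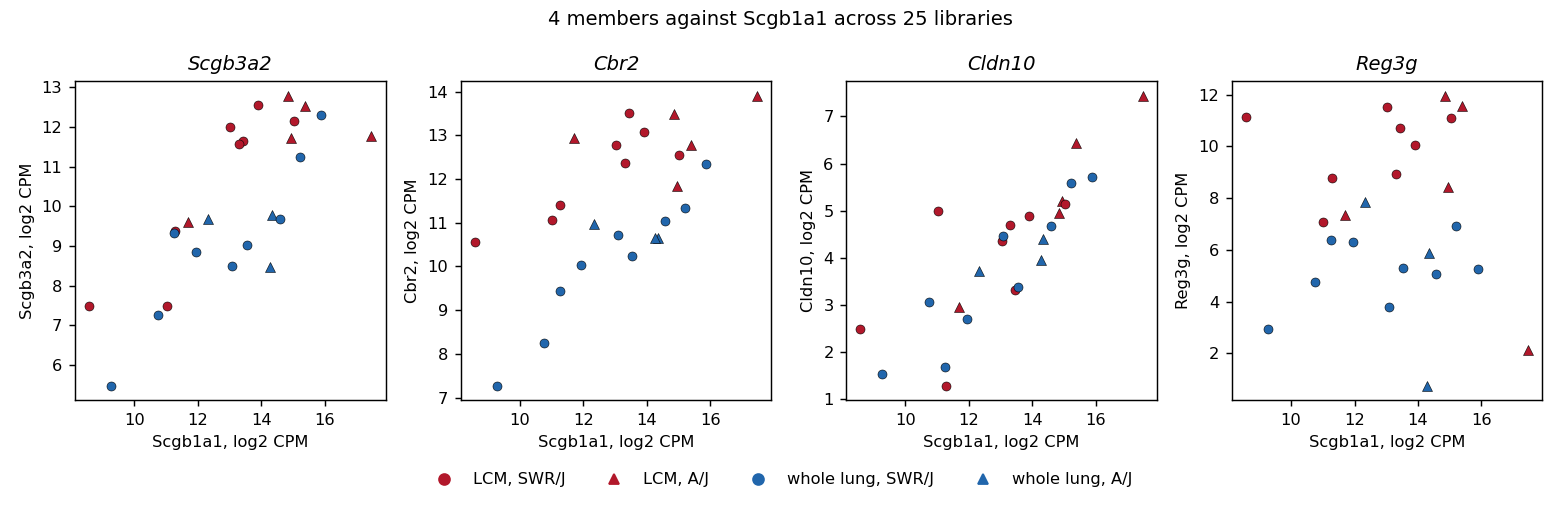
Log2 CPM of Scgb3a2, Cbr2, Cldn10 and Reg3g (vertical axes) against log2 CPM of Scgb1a1 (horizontal axes), with 1 point per library, LCM in red, whole lung in blue, circles for SWR/J and triangles for A/J. The first 3 genes rise with Scgb1a1 within each sample type, while Reg3g has r of -0.251 in LCM and 0.08 in whole lung. Without the 2 LCM libraries farthest from the median of Scgb1a1, r in LCM is 0.697 for Reg3g and 0.496 for Cbr2.

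The genes most like each member were sought over the 25 libraries among 14203 genes, as a description in which points share sample type and grade. Scgb1a1 was most like 1700084C01Rik (r = 0.89), Aldh1a7 (0.876), of the aldehyde dehydrogenase family, and Frem1 (0.864). Scgb3a2 was most like Acsm1 (0.925), Aldh1a1 (0.908) and the ciliary gene Ccdc113 (0.905), and Cldn10 most like Slc7a4 (0.88), D630039A03Rik (0.87) and Gstt3 (0.864). Cbr2 was closest to Cyp2f2 (0.971), the cytochrome P450 that activates naphthalene in club cells, Gsta3 (0.961), a glutathione transferase, and Aldh1a1 (0.926). Scgb3a1 and Reg3g had each other or the same secreted genes at the top. Scgb3a1 was most like Reg3g (0.875), Bpifa1 (0.847) and Agr2 (0.795), and Reg3g most like Bpifa1 (0.946), a secreted airway surface protein, Agr2 (0.934), an endoplasmic reticulum protein needed for mucin folding, and Kcne3 (0.915). Muc5b was most like Idh1 (0.788), Aqp4 (0.779) and Tspan1 (0.775), and Gabrp most like Mgat3 (0.983), Fam83e (0.958) and Vtcn1 (0.951).

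Other secretory genes were counted as lists around the 8 members. Of 18 other club and airway secretory genes, 3 were called higher in mild dysplasia than in normal and none lower, beside 5.21% of all genes called higher. They were Pigr, the receptor that carries immunoglobulin A into the lumen (2.46 ± 0.69, adjusted p = 0.0296), the sulfotransferase Sult1d1 (2.61 ± 0.82, adjusted p = 0.0426) and the uroplakin Upk3a (3.17 ± 1.04, adjusted p = 0.0483). None of the 18 was called for high-grade against normal, where Bpifb1, a secreted protein related to Bpifa1, and Nupr1 had the smallest p (-2.63 ± 1.06 and 0.88 ± 0.41, adjusted p = 0.496 and 0.543). In LCM against whole lung 11 of the 18 were higher, beside 5.65% of all genes, the smallest p being those of Pigr and Sult1d1 (2.05 ± 0.43 and 2.91 ± 0.61, adjusted p = 0.00499 and 0.0051).

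Of 11 tested mucin and goblet cell genes, 3 were higher in mild dysplasia, beside 5.21% of all genes. The membrane mucins Muc20 and Muc4 differed by 2.33 ± 0.57 and 2.41 ± 0.67 (adjusted p = 0.0214 and 0.0295). The gene listed as Clca1 differed by 2.99 ± 0.91 (adjusted p = 0.0372). That symbol is the one of the older mm9 gene names. Whether it is the goblet cell gene now called Clca1 was not checked. In high-grade libraries Gcnt3, an enzyme of mucin glycosylation, and Agr2 had the smallest p of the list without passing (4.14 ± 1.14 and 2.13 ± 0.76, adjusted p = 0.317 and 0.44). In LCM 6 of the 11 were higher, beside 5.65% of all genes, led by Agr2 (3.33 ± 0.60, adjusted p = 0.00213) and the membrane mucin Muc16 (2.96 ± 0.55, adjusted p = 0.00261).

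Of 14 tested transcription factors of the airway epithelium, Grhl2, which maintains epithelial junction genes, was called higher in mild dysplasia (1.68 ± 0.45, adjusted p = 0.0272) and in A/J (1.91 ± 0.45, adjusted p = 0.0382). Of all genes, 5.21% were called higher in mild dysplasia and 0.992% were called in either direction between strains. By edgeR none was called in high-grade dysplasia, where 4 had an unadjusted p under 0.05 and Cebpd and Cebpb had the smallest p (1.63 ± 0.45 and 0.70 ± 0.25, adjusted p = 0.317 and 0.44). In LCM 5 were higher, beside 5.65% of all genes, among them Foxa1 (1.53 ± 0.39, adjusted p = 0.0123) and Elf3 (1.60 ± 0.42, adjusted p = 0.0148). Cebpb was lower in LCM, as were 1395 of all 15630 genes. Of 11 tested antimicrobial and epithelial defence genes, the list closest to Reg3g, the interleukin 17 receptor gene Il17ra was lower in mild dysplasia (-1.48 ± 0.48, adjusted p = 0.0464) and in LCM (-1.26 ± 0.30, adjusted p = 0.00929). Of all 15630 genes, 1131 were called lower in mild dysplasia and 1395 in LCM. By edgeR none was called in high-grade dysplasia, where 5 had an unadjusted p under 0.05, with the neutrophil chemokine Cxcl1 at 2.52 ± 0.63 and the siderophore-binding Lcn2 at 3.22 ± 0.95 (adjusted p = 0.285 and 0.324). In LCM the chemokine Cxcl5 was 1 of 2 that were higher (2.81 ± 0.58, adjusted p = 0.00488), beside 5.65% of all genes.

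In the mild comparison, 2 of 5 lymphocyte markers, Cd3e and Rag1, were called lower, 2 of 4 fibroblast markers, Col3a1 and Pdgfra, and 1 of 6 alveolar type 1 markers, Pdpn, were called higher, and none of the 8 ciliated, 6 basal, 6 squamous or 6 alveolar type 2 markers was called by edgeR. Of all 15630 genes, 1131 were called lower and 5.21% higher. All 8 ciliated markers, though not called, had a positive difference, 5 of them at an unadjusted p under 0.05. Their median log2 fold change was 1.67, beside 0.97 for the 8 members. Their summed level had a median of 81.1 CPM in normal libraries (range 15.2 to 730) and 599 CPM in mild libraries (range 95.7 to 750). All 6 alveolar type 2 markers were positive as well, 2 at an unadjusted p under 0.05, with a median of 1.35. So were all alveolar type 1 (median 1.76), basal (1.29), endothelial (1.07), fibroblast (1.51), smooth muscle (1.23) and cardiac muscle markers (1.93). A positive difference was thus not particular to airway cells. Of the other lists, macrophage markers had a median of 0.34, squamous -0.1, neuroendocrine -1.02, skeletal muscle -1.48 and lymphocyte markers -2.62. The summed lymphocyte markers were 174 to 1840 CPM in normal and 43.7 to 589 CPM in mild libraries. Whether these cell types have a part in the differences of Gabrp, Pigr and the mucins was not tested.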

How the data were processed

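Polyadenylated RNA from LCM tissue and whole lung was sequenced as single-end reads of 50 bases. The authors aligned trimmed reads to mm9 with STAR and deposited RSEM expected counts per Ensembl gene for each library, with a per-library median TIN from RSeQC. They had set aside 15 of the 40 libraries for few uniquely aligned reads.

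Here the deposited expected counts of the 25 passed libraries were rounded to whole numbers (88.8% of values were whole already). Genes with an interquartile range above 0 and a sum above 1 of log2 CPM (TMM-normalised, prior count 2) were kept, leaving 15630. One robust quasi-likelihood model in edgeR 4.0.16 (R 4.3.3) held grade, strain, sample type and median TIN. P-values were adjusted by Benjamini-Hochberg over all genes tested, with calls at 0.05. DESeq2 1.42.0, other filters, scalings, covariates, subsets and leaving out each library were alternatives. Leaving out the 4 libraries with markers of other tissues was chosen after seeing the data.

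Log2 CPM levels used prior count 2, and levels per kilobase used the exon union of each gene. Correlations used 100000 permutations. The fitting step was tested on simulated counts. All 8 members are named. From each other list the text names up to 4 genes with the smallest p among those called in mild dysplasia, and the 2 with the smallest p in high-grade dysplasia and in LCM. The members and lists were chosen with earlier results of these data known.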

Additional observations from a re-analysis of the deposited data

Results flagged for a closer look

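Whole lung mild dysplasia replicate 3 stood far below the other 4 mild libraries for a pair of genes. That group mixes sources, and 3 of the other 4 are LCM libraries. Its Scgb3a2 level was 8.86 on the log2 CPM scale, against 11.58 in the next lowest library, and its Cbr2 level was 10.03 against 12.34. In each case the gap was most of the group's range (0.739 and 0.76 of it). Normal whole lung libraries ranged from 5.48 to 9.34 for Scgb3a2 and from 7.27 to 10.71 for Cbr2, which takes in both levels. Of 24 groups of libraries examined, chance alone would set apart about 1 in 20 if the groups were independent and of 1 source. The groups mix sources, and Scgb3a2 and Cbr2 varied together over the 25 libraries (r = 0.858), so that rate need not hold here.

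Muc5b and Cbr2 lay on opposite sides of the normal mean in the 2 sample types in every mild library, without adjustment for strain. All mild libraries came from SWR/J mice, whereas 2 of the 3 normal LCM libraries came from A/J mice. Muc5b differed by -0.53 in LCM and by 3.39 in whole lung, a difference of -3.92 between them (log2 CPM). Cbr2 differed by -0.40 in LCM and by 1.66 in whole lung, a difference of -2.06. Models fitted within each sample type, with strain and TIN as covariates, gave Muc5b at -0.66 ± 1.04 in LCM and 4.83 ± 1.33 in whole lung, and Cbr2 at 0.34 ± 0.88 and 3.53 ± 1.2, the same sign in both. The difference between sample types itself was not tested.

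The 15 libraries without the passed label, of which 12 were from treated mice, entered no comparison. Among those 12, the levels of Muc5b in 4 libraries, of Gabrp in 2 and of Reg3g in 1 lay above every passed normal library, counting levels that rest on at least 10 counts. Of the 3 vehicle libraries without the label, 2 each lay above every passed normal library for Scgb3a1, for Scgb3a2, for Muc5b and for Reg3g, with levels of up to 32100 CPM for Scgb3a1 and 26400 CPM for Scgb3a2, beside highest passed normal levels of 6780 and 5420 CPM. These 15 libraries held between 17051 and 1965373 counts. How many of all genes lay above the passed normal libraries in this way was not counted.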

How the results depend on the processing

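No paired analysis was possible because replicate numbers were given in accession order and pair no libraries. Calls by edgeR at adjusted p 0.05 over all genes numbered 1945 for mild against normal, 3 for high-grade against normal, 51 for high-grade against mild, 2278 for LCM against whole lung and 155 for A/J against SWR/J. DESeq2 gave 3653, 91, 1377, 3348 and 961 in the same order. It gave 2 calls for high-grade by sample type and 5 by strain, with 2 members called by strain. Cbr2 was at -0.02 for high-grade against normal with DESeq2, as with RLE scaling (-0.02). With TIN alone as covariate, mild gave 0 calls and 0 members called, Scgb1a1 at -0.53 and Cldn10 at -0.22, high-grade against normal gave 1 call, and against mild Scgb1a1 was at 0.14, Muc5b at 1.08 and Cldn10 at 0.04. Without the 2 libraries described otherwise, mild gave 997 calls and 0 members, high-grade against mild 2 calls, LCM 1298, and A/J against SWR/J had Scgb3a1 at 0.17 and Reg3g at 0.11. In LCM alone, mild gave 0 calls and 0 members, Muc5b at -0.66 and Cldn10 at -0.06; high-grade against normal gave 0 calls, Scgb3a1 at 0.46 and Cbr2 at -0.21, and against mild 4 calls and Muc5b at 1.5. In whole lung alone, mild gave 0 calls and 0 members; high-grade against normal gave 0 calls, Scgb1a1 at 1.10 and Cldn10 at 0.58, and against mild 0 calls and Scgb3a1 at -0.59. In SWR/J alone, mild gave 0 members; high-grade against normal gave 0 calls, Scgb3a2 at -0.31 and Reg3g at -0.17, and against mild 4 calls, Scgb3a1 at -0.18 and Reg3g at -0.46. In A/J alone, high-grade against normal gave 0 calls, Scgb3a1 at 6.28, Cbr2 at -0.56 and Cldn10 at 0.40. Without the 4 libraries with markers of other tissues, mild gave 1148 calls and Scgb1a1 at -0.04, high-grade against normal 0 calls and Scgb3a1 at 0.21, and high-grade against mild 0 calls; Scgb1a1 was at 0.21 in LCM against whole lung, Scgb3a2 at -0.11 in A/J against SWR/J and Gabrp at -0.20 by strain, and r with Scgb1a1 was -0.109 for Muc5b in LCM and 0.073 for Scgb3a1 in whole lung. Without a gene filter, the calls were 1 for high-grade against normal, 13 against mild and 254 for A/J against SWR/J, and with the filter at prior count 0.25 high-grade against mild gave 32. Without TIN they were 5, 2339 and 2493, with 1 member called in each of the last 2 (Gabrp, -1.84 and 1.62), and A/J against SWR/J had Scgb3a1 at 0.93 and Reg3g at 0.02. Leaving out each library in turn gave 643 (mild dysplasia replicate 4) to 3118 calls (normal replicate 5) for mild (0 to 1 members called, Scgb1a1 from -0.81 to 1.21, Cldn10 from -0.09 to 1.19), and 0 to 6 for high-grade against normal (Scgb1a1 from -0.87 to 0.45, Scgb3a1 from -1.19 to 0.85, Cbr2 from -0.26 to 0.25, Cldn10 from -0.63 to 0.55). It gave 0 to 1148 (moderate to severe dysplasia replicate 11) for high-grade against mild (Scgb1a1 from -1.29 to 0.20, Muc5b from -1.92 to 0.65), 1385 (moderate to severe dysplasia replicate 5) to 2543 for LCM (Scgb1a1 from -0.65 to 0.63), and 97 to 402 (moderate to severe dysplasia replicates 4 and 11) for A/J against SWR/J (Scgb3a1 from -1.83 to 0.37, Reg3g from -1.20 to 0.38). None of the member values that turned sign was called; the lowest adjusted p among them was 0.448. Over all alternatives, 1407 member values kept direction and side of the threshold, 13 lost a call, 11 gained one and 65 turned sign. The causes were not tested. Library totals ran from 2667387 to 16534728 counts, so the lowest levels are least precise in the smallest libraries.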
